A study of Mus musculus with 4 samples.

Results

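The genes described here encode subunits of the Polycomb repressive complexes and the histone demethylase Kdm6b, which acts against them. They were taken by name from a list of 10 genes (Ezh2, Ezh1, Suz12, Eed, Bmi1, Cbx2, Cbx7, Cbx8, Ring1 and Kdm6b), and every array probe listed under a mouse RefSeq transcript of a listed gene was used. This gave 25 probes for 9 genes, of 17466 genes matched on the array. Ring1 matched no probe and was not analysed here. RNA came from mouse embryonic fibroblasts, the spindle-shaped cells that grow out of dissociated embryos and divide only for a limited time in culture. Cells at passage 7, labelled as entering replicative senescence (a durable stop of division after serial passaging), were compared with growing cells at passage 2, with 2 one-colour arrays for each. Both groups were primary cultures in DMEM with serum and antibiotics, and the labels name no strain, genotype, embryonic age or added agent. Per the labels, RNA of 3 independent cultures was pooled before measurement, so the 2 arrays of a passage may be technical repeats, and the p-values measure only the spread between arrays.

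Polycomb repressive complex 2 (PRC2) methylates lysine 27 of histone H3. Ezh2 and Ezh1 are its alternative catalytic subunits, Suz12 holds the complex together, and Eed binds the finished mark. Polycomb repressive complex 1 (PRC1) ubiquitylates histone H2A through Ring1 or Rnf2 paired with a Pcgf protein such as Bmi1, and its Cbx subunits bind methylated lysine 27 through a chromodomain. Kdm6b, also called Jmjd3, removes methyl groups from that lysine. In young fibroblasts both complexes occupy the Ink4-Arf locus, which holds Cdkn2a and Cdkn2b and encodes the growth inhibitors p16Ink4a, p19Arf and p15Ink4b, and mouse fibroblasts that lack Bmi1 are known to enter senescence early.

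The 4 arrays shared 1 slide but not a position on it, and position cannot be told apart from passage. At passage 7 the 75th percentile of signal was 964 and 402, and at passage 2 it was 1024 and 1404, with 65.8% to 70.6% of spots well above background at passage 7 and 71.9% to 72.7% at passage 2. No spot was saturated. All 25 member probes were well above background on all 4 arrays, so a filter on dim probes removed none. The 9 fibroblast markers matched (among them Col1a1, Col3a1, Vim and Thy1) were well above background on every array, and of these Pdgfra and Lum fell. Of markers of other cell types, 3 of 3 tested macrophage markers and 3 of 6 epithelial markers fell, where 9.42% of all genes fell. The macrophage markers Adgre1 and Fcgr1 passed the filter only through passage 2, where they are high. Csf1r was well above background on all 4 arrays. The summed macrophage signal was 0.508 and 0.728 times the 75th percentile at passage 7 and 1.51 and 1.47 times at passage 2. That sum is almost wholly Csf1r, whose log2 levels relative to the 75th percentile were -1.05 and -0.50 at passage 7 and 0.51 and 0.45 at passage 2. The summed epithelial signal was 0.257 and 0.391 at passage 7 and 1.18 and 1.03 at passage 2. The leukocyte marker Ptprc was not well above background on any array. Of 5 skeletal muscle markers 1 rose (Acta1) and 1 fell (Des), with a sum of 21.3 and 23.3 at passage 7 and 11.9 and 8.37 at passage 2 that is almost wholly Acta1 (log2 change 1.25 ± 0.24, adjusted p = 0.0269), since the other 4 lay below the 75th percentile on every array. Of the 4 endothelial and 3 neural markers tested, 1 each (Cdh5 and Sox2) passed the p threshold in limma but not the fold minimum (-0.71 and -0.88, adjusted p = 0.0441 and 0.0335). The part of these cells in the results below was not tested.

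A level is the log2 signal of a probe minus the log2 of its array's 75th percentile, and a change is the mean level at passage 7 minus that at passage 2, with SE from limma. A gene was called changed, and is said to have risen or fallen, at an adjusted p under 0.05 with at least a 2-fold change. Of 13847 genes tested, 19.4% changed (9.99% rose and 9.42% fell), and the median change of all genes was 0.20. Of the changed genes 51.5% rose, a share that was 42.3% after quantile normalisation, 41.2% when arrays were scaled to their medians and 36.2% in the value table of the authors. Of the 9 members, 3 fell (Ezh2, Suz12 and Cbx2), 1 rose (Kdm6b) and 5 did not pass. Their median change was -0.38, and their changes ran from -2.15 to 1.41. With the normexp background correction scaled to the 75th percentile no gene passed in limma, these 4 included (662 genes at an unadjusted p under 0.05). By probe, 9 of 25 fell and 3 rose, where 20.5% of all named probes changed, and over every probe on the array 8.72% rose and 8.53% fell. Within each gene all probes had 1 sign. The arrays of the passages did not overlap for 24 of the 25, against 69.8% of named probes. In a bulk sample, fewer cells of a type and less RNA per cell cannot be told apart.

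**Figure D1:**
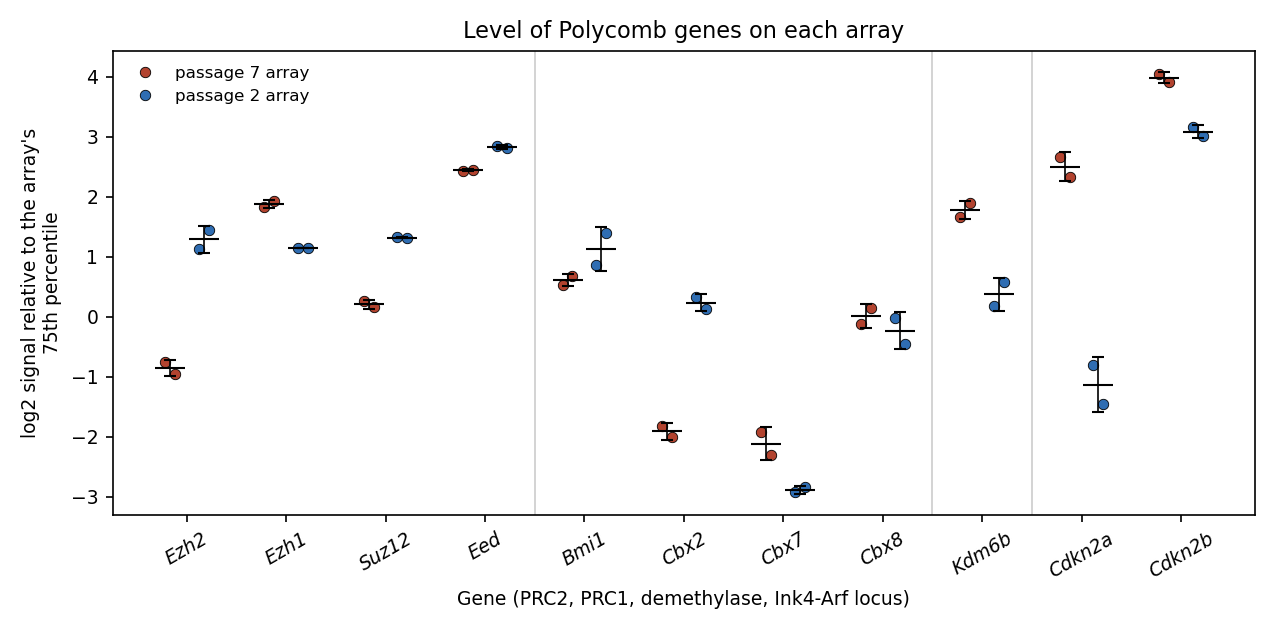
Level of each gene on each array, as log2 signal relative to the array's 75th percentile, for the probe that represents the gene. Points are arrays (passage 7 left, passage 2 right), with mean and SD (n = 2); Ezh2, Suz12 and Cbx2 lie lower at passage 7 and Kdm6b and Cdkn2a higher, and heights of different genes are not comparable because each is read by another probe.

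Of the 4 PRC2 subunits, Ezh2 and Suz12 fell, while Eed and Ezh1 did not pass. Ezh2, the catalytic subunit typical of dividing cells, had levels of -0.76 and -0.95 at passage 7, against 1.13 and 1.44 at passage 2. Both passage 7 arrays lay far below both passage 2 arrays. The mean was -0.86 ± 0.14 at passage 7 and 1.29 ± 0.22 at passage 2 (SD, n = 2 each), a fall of 4.42-fold (-2.15 ± 0.21 on the log2 scale, with an adjusted p of 0.00716 by limma). The 3 probes of Ezh2 changed by -2.22 to -1.99, and only 2.59% of genes tested had a more negative change than the gene. Suz12, the scaffold subunit, had levels of 0.26 and 0.16 at passage 7 and 1.32 and 1.31 at passage 2. Its arrays did not overlap between passages either, and it fell 2.16-fold (log2 change -1.11 ± 0.17, adjusted p = 0.0174), with its 3 probes between -1.40 and -1.11. Suz12 lost its call when either array of passage 7 was left out (adjusted p = 0.0901 without replicate 1, 0.129 without replicate 2). It was also under 2-fold with the normexp background correction and quantile normalisation (-0.86).

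Eed, the subunit that reads the mark, had levels of 2.43 and 2.45 at passage 7 and 2.85 and 2.81 at passage 2. The arrays did not overlap, but the change of -0.38 ± 0.17 was small and did not pass (adjusted p = 0.165; 95% interval -0.84 to 0.07). Its 2 probes gave -0.40 and -0.38. Groups that do not overlap are common in these data: 68.4% of all genes tested had no overlap between the passages, and so had 8 of the 9 members.

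Ezh1, the other catalytic subunit, which is known to prevail in non-dividing tissues, lay on the other side of 0. Its levels were 1.83 and 1.93 at passage 7, against 1.15 and 1.14 at passage 2. The change was 0.73 ± 0.17 (1.66-fold, adjusted p = 0.0433), past the p threshold but short of the 2-fold minimum, and 2 of its probes gave 0.73 and 0.74 while the remaining one gave 0.25. Relative to the median of all genes the change was 0.53. A ratio taken within each array does not depend on the scaling between arrays. Set against Ezh2 in this way, Ezh1 was 7.34-fold higher at passage 7 than at passage 2 (log2 2.87, from 2.57 to 3.18 over the 4 pairs of arrays). Suz12 was 2.05-fold and Eed 3.39-fold higher relative to Ezh2 (log2 1.04 and 1.76). The array pairs of these ratios ran from 0.83 to 1.24 for Suz12 and from 1.48 to 2.04 for Eed. With 4 arrays the exact permutation test (two-sided, 8 ratios compared, chosen with the changes known) cannot give a p under 0.333, and it gave 0.333 for each of these 3 ratios (0.381 adjusted over the 8), so it cannot tell whether they differ from 0.

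**Figure D2:**
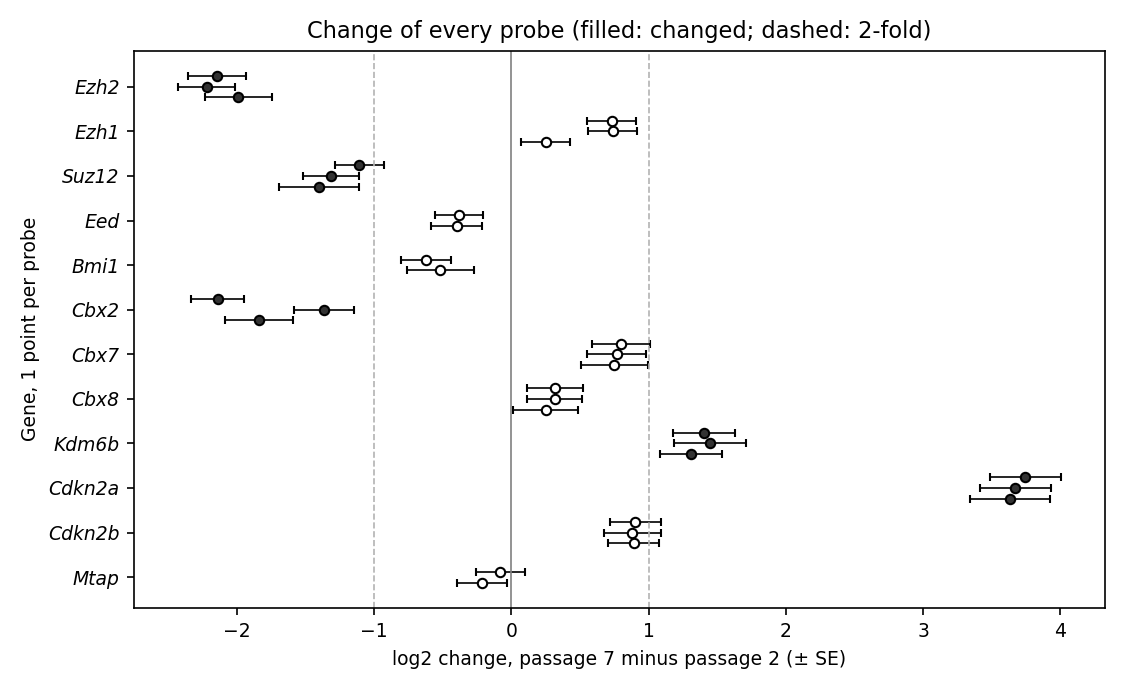
Change of every probe of the 9 members and of 3 genes of the Ink4-Arf locus, as log2 passage 7 minus passage 2 with SE. Filled points passed both thresholds and dashed lines mark 2-fold; all probes of Ezh2, Suz12 and Cbx2 are filled on the left, those of Kdm6b and Cdkn2a on the right, and those of Ezh1, Cbx7 and Cdkn2b lie between 0 and 1.

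The promoters of these PRC2 genes are shown because the E2F factors, which drive genes of cell division, are known regulators of PRC2 genes. The windows run from 250 bases before to 50 bases after the start site (RefSeq, GRCm38.p6), and capitals mark a match to the E2F consensus, searched as TTTCCCGC, TTTCGCGC, TTTGCCGC and TTTGGCGC on both strands. The Ezh2 window (chr6:47594981-47595280, minus strand) and the Suz12 window (chr11:79992856-79993155, plus strand) each held 1 match, at positions 4 and -219 from the start site. The Ezh1 window (chr11:101226414-101226713, minus strand) held none.
Ezh2: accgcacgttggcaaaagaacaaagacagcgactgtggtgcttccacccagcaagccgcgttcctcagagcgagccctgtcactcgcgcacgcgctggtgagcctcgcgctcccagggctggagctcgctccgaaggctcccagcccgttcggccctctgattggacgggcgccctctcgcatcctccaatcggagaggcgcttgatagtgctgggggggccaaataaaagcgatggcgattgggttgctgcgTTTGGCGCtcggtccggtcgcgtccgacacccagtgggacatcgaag
Suz12: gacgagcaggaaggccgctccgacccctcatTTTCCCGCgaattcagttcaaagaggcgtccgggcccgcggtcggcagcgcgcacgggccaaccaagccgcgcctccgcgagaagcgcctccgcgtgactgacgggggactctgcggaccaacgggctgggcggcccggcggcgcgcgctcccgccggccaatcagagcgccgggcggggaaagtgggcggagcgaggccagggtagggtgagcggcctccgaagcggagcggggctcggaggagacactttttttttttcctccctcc
Ezh1: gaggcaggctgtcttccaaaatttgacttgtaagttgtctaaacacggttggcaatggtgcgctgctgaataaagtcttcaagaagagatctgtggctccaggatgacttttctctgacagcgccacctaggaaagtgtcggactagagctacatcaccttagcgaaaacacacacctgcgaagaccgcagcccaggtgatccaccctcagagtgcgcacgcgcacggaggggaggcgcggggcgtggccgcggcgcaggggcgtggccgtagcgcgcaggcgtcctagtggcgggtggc
The table matched 8 of the 10 members, all but Cbx2 and Kdm6b. Ezh2 and Suz12 held a match, while Ezh1, Eed, Bmi1, Ring1, Cbx7 and Cbx8 did not. Cdkn2a, which rose, also held one, at position -99 of the upstream of its 2 start sites, and none at the other. Its probes are all listed under the same transcript, and which start site they read was not tested. Over the windows of genes tested 3.47% held a match, over those of genes that fell 8.21%, over those of genes that rose 1.51%, and over all 32851 windows 2.26%. Of the lists given below, 8 of 21 proliferation windows (38.1%), 1 of 38 wider Polycomb windows (2.63%) and 0 of 20 Polycomb target windows held one. A match is thus not a trait of Polycomb genes at large. The members' windows had CpG observed over expected ratios of 0.71 (Bmi1) to 1.09 (Suz12). Their median was 0.90, against 0.71 over windows of genes tested. The medians of lists given below were 0.91 (proliferation), 0.80 (Polycomb targets) and 0.77 (wider Polycomb), so the trait is not particular to the members. A match is a description of the letters and not a bound site.

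Of the 4 PRC1 subunits measured, Cbx2 fell, while Cbx7, Cbx8 and Bmi1 did not pass. Cbx2, one of the chromodomain readers, had levels of -1.81 and -2.01 at passage 7 and 0.33 and 0.13 at passage 2. Its passage 7 arrays were both lower, by a margin close to that of Ezh2, and it fell 4.41-fold (log2 change -2.14 ± 0.19, adjusted p = 0.00659). Its 3 probes gave changes of -2.14, -1.84 and -1.37, each past both thresholds. Cbx7, a reader known to extend the lifespan of cultured cells through repression of Ink4-Arf, had levels of -1.92 and -2.31 at passage 7, against -2.93 and -2.84 at passage 2. Both passage 7 arrays were thus higher, with a change of 0.77 ± 0.22 that did not pass (1.70-fold, adjusted p = 0.063). The interval ran from 0.20 to 1.33, and the 3 probes gave 0.75 to 0.80. The spots of Cbx7 were 4.7 to 15.1 times as bright as their local background.

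Cbx8, another reader, which also binds Ink4-Arf in fibroblasts, had levels of -0.13 and 0.15 at passage 7 and -0.02 and -0.45 at passage 2. It was the only member whose representative probe overlapped between passages, with a change of 0.25 ± 0.24 (adjusted p = 0.478; interval -0.38 to 0.88). With 1 array left out it ran from 0.03 (without replicate 2 of passage 2) to 0.47 (without replicate 1 of passage 2), with 0.11 and 0.39 when replicate 2 or replicate 1 of passage 7 was left out. Relative to Cbx2 within each array, Cbx7 was 7.51-fold and Cbx8 5.24-fold higher at passage 7 than at passage 2 (log2 2.91 and 2.39; exact permutation p = 0.333 for each, the smallest possible). The ratio of Cbx7 to Cbx8 changed by 0.52, with array pairs from -0.08 to 1.12 (exact permutation p = 0.667, also 0.667 adjusted over the 8 ratios).

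Bmi1, the Pcgf subunit best known as a repressor of Ink4-Arf, had levels of 0.54 and 0.68 at passage 7 and 0.86 and 1.39 at passage 2. Its passage 7 arrays were lower, but the passage 2 arrays differed between themselves as much as the passages did. The change of -0.52 ± 0.25 did not pass (1.43-fold lower, adjusted p = 0.186, interval -1.17 to 0.13), and the other probe gave -0.63 (adjusted p = 0.0615). Relative to the median of all genes the change was -0.72. In the value table of the authors Bmi1 changed by -0.82 (adjusted p = 0.0254 by limma), past the p threshold but under 2-fold. It was called in 0 of 19 alternatives. With 1 array left out, the change of Bmi1 ran from -0.78 without the passage 2 replicate 1 array to -0.26 without the passage 2 replicate 2 array.

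Kdm6b, the demethylase, went the opposite way to Ezh2. Its levels were 1.67 and 1.89 at passage 7 and 0.18 and 0.57 at passage 2. It rose 2.65-fold (log2 change 1.41 ± 0.23, adjusted p = 0.0181), and 94.1% of genes tested had a lower change. Its 3 probes gave 1.31, 1.41 and 1.44. Relative to Ezh2 within each array it was 11.7-fold higher at passage 7 (log2 3.55, array pairs from 3.30 to 3.80; exact permutation p = 0.333, the smallest possible). The call was lost when either array of passage 7 was left out (1.52 with adjusted p = 0.0561 without replicate 1, and 1.29 with adjusted p = 0.0919 without replicate 2). Kdm6a, the related X-linked demethylase, could not be given a direction, since the probe that represents it gave 0.70 (adjusted p = 0.0928 over probes) and its 2 others -1.20 and -1.21 (adjusted p = 0.0237 and 0.0277).

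The same values were read at the Ink4-Arf locus, which Polycomb complexes are known to repress. Cdkn2a had levels of 2.67 and 2.33 at passage 7 and -0.81 and -1.45 at passage 2, and rose 12.4-fold (log2 change 3.63 ± 0.29, adjusted p = 0.00579), with its 3 probes at 3.63 to 3.74. Cdkn2b had levels of 4.05 and 3.92 at passage 7 and 3.16 and 3.01 at passage 2, with its 3 probes between 0.88 and 0.90. Its change of 0.90 ± 0.18 (1.87-fold, adjusted p = 0.03 by limma) was past the p threshold but under the 2-fold minimum. Mtap, the gene next to the locus, changed by -0.21 ± 0.18 (adjusted p = 0.424). Of probes tiled along the locus, 31 of 153 tested on the antisense strand and 19 of 134 on the sense strand rose, but 8 and 1 of these passed the filter only through passage 7, where they are high. A further setting, chosen after seeing the data, took probes well above background on all 4 arrays. There 23 of 141 antisense (16.3%) and 18 of 117 sense probes (15.4%) rose, against 8.92% of all such probes. Their median changes were 0.67 and 0.81. The median over genes filtered in this way was 0.23, but each gene was read there by its brightest probe. A median over all probes filtered in this way was not taken, so these values are not strictly comparable. Tiled probes well above background on no array often lay higher at passage 7 too. An antisense probe of this kind had levels of -9.14 and -8.06, against -9.34 and -9.87 at passage 2. The part of the scaling of dim probes in these counts was not tested. None of the tested probes fell in limma, with 2 and 1 lower at an unadjusted p under 0.05. Neighbouring probes may read the same transcripts, which was not tested, and cannot be counted as independent. The 2 arrays with high Cdkn2a were the 2 with low Ezh2, Suz12 and Cbx2 and high Kdm6b, while Bmi1, Cbx7 and Cbx8, also known to act there, did not pass, with changes of -0.52, 0.77 and 0.25. With 2 groups of 2 arrays no relation between these genes can be tested apart from passage, and no histone mark or protein was measured.

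The rest of the Polycomb machinery was read from a list of 29 further genes, of which 27 were tested. Of these, 4 fell and 1 rose, or 18.5% against 19.4% of all genes, and their median change was -0.29, with 20 of 27 below 0. The largest fall was in Phf19, a Polycomb-like PRC2 accessory subunit that binds the mark of active genes. It had levels of -1.40 and -1.34 at passage 7 and 0.73 and 0.80 at passage 2 (log2 change -2.13 ± 0.17, adjusted p = 0.00579), and its 2 other probes gave -2.22 and -2.16. Its relative Mtf2 fell by 1.15 ± 0.26 (adjusted p = 0.0371), with other probes at -0.85 and -0.82. The remaining Polycomb-like gene, Phf1, rose by 1.01 ± 0.18 (adjusted p = 0.0236), with other probes at 0.87 and 0.85. Rybp and Kdm2b, subunits of variant PRC1 complexes, fell by 1.05 ± 0.18 and 1.04 ± 0.19 (adjusted p = 0.0209 and 0.0232). The other probes of Rybp gave -0.97 and -0.99, short of 2-fold, and those of Kdm2b gave -1.15 and -0.60.

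Apart from Phf19 these calls sat close to the 2-fold line. With the mean of all probes 2 of the 27 passed, and 1 passed when replicate 2 of passage 2 or either array of passage 7 was left out. The single rise, that of Phf1, was lost under quantile normalisation, under median scaling and in the authors' table. Rnf2, the main ubiquitin ligase of PRC1, changed by -0.93 ± 0.19 (adjusted p = 0.0285), and its other probe by -0.77. It passed under quantile normalisation (-1.08, adjusted p = 0.0166) and under median scaling (-1.10, adjusted p = 0.0161). Rbbp4, a histone-binding PRC2 subunit, changed by -0.73 ± 0.28 (adjusted p = 0.126), a direction that turned with the normexp background correction (0.21). With 1 array left out Rbbp4 ran from -1.06 without replicate 1 of passage 2, where it passed (adjusted p = 0.0409), to -0.40 without replicate 2 of passage 2.

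Of the trithorax group, which opposes Polycomb, 9 of 12 genes were tested. Of these 1 fell (11.1%, against 9.42% of all genes), 6 had a change below 0, and the median was -0.28. The gene that fell was Kmt2c, a methyltransferase of histone H3 lysine 4 at enhancers (-1.23 ± 0.19, adjusted p = 0.0164, with other probes at -1.35 and -0.90). When either array of passage 7 was left out, 0 trithorax genes passed in limma (1 at an unadjusted p under 0.05), and 2 passed without replicate 2 of passage 2.

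**Figure D3:**
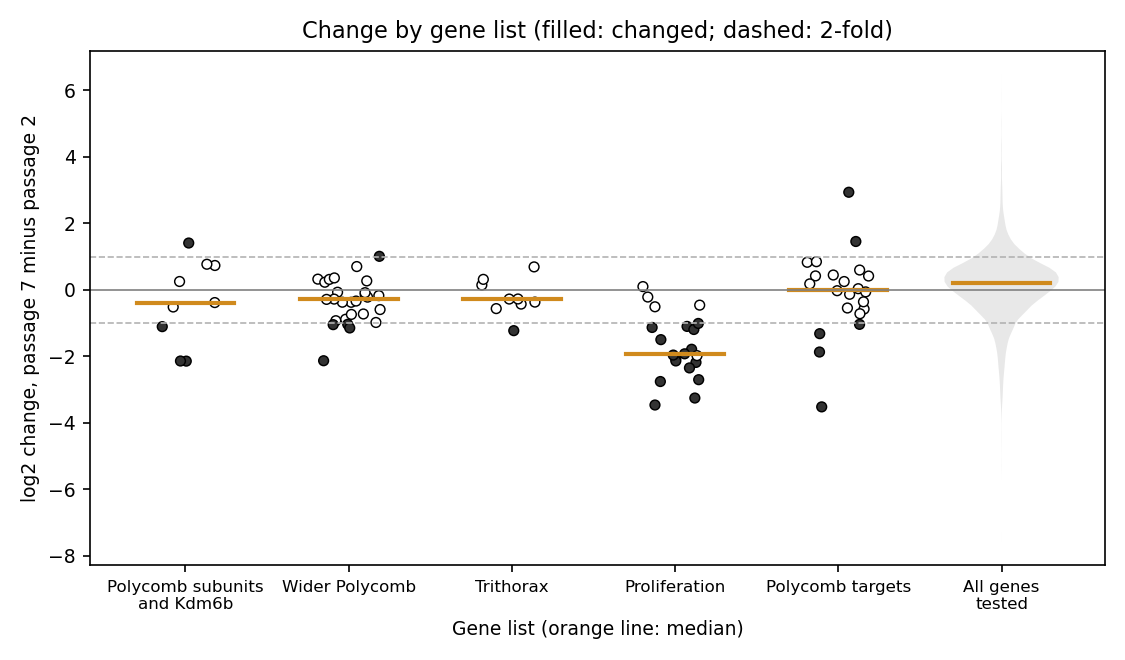
Change of each tested gene by list, as log2 passage 7 minus passage 2, with the distribution over all genes at the right. Filled points passed both thresholds, orange lines are medians and dashed lines mark 2-fold; the proliferation list lies low at a median of -1.93, and the other lists have medians from -0.38 to 0.00.

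Genes whose level follows cell division were read beside Ezh2 and Cbx2. Of 21 such genes 16 fell, where 9.42% of all genes fell, 20 had a change below 0, and their median change was -1.93. The largest falls were in Ccna2 and Ccnb1, cyclins of S phase and mitosis, and in the transcription factor Mybl2 (-3.46 ± 0.21, -3.25 ± 0.19 and -2.76 ± 0.20; adjusted p = 0.00504, 0.00504 and 0.00517). The changes of Ezh2 (-2.15), Cbx2 (-2.14) and Phf19 (-2.13) lay between those of this list, whose range was -3.46 to 0.10. That range is wide, and Suz12 (-1.11), Bmi1 (-0.52), Eed (-0.38) and Mtap (-0.21) also lay in it. A place within it is thus not particular to a gene. The genes most like Ezh2 over the 4 arrays, by Euclidean distance of centred levels among 12810 others well above background on every array, were Lbr, a protein of the inner nuclear membrane, Fmr1, an RNA-binding protein, and Orc1, a subunit of the origin recognition complex (distances 0.0905, 0.0954 and 0.103). Those most like Kdm6b were F8, a coagulation factor, Dst, a linker of the cytoskeleton, and Lhfpl1 (0.0565, 0.0704 and 0.0744). With 4 arrays in 2 groups such likeness is mostly a like change between passages.

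Developmental regulators that carry the Polycomb mark in many cell types were read as a further list. Of 27, 22 were tested, 2 rose and 4 fell (27.3% changed, against 19.4% of all genes). The median change was 0.00, against 0.20 over all genes. With the mean of all probes 3 rose and 4 fell. Hoxc13 did not pass by the probe that represents it (0.84, adjusted p = 0.12 by limma over probes). Its other probes gave 1.88 and 1.67 (adjusted p = 0.0065 and 0.0079). Eomes, a T-box factor, had levels of -2.08 and -1.97 at passage 7 and -4.96 and -4.96 at passage 2, and its change was 2.93 ± 0.17 (7.63-fold, adjusted p = 0.00504). Msx2, a homeobox factor of limb and skull, rose by 1.45 ± 0.23 (adjusted p = 0.0174). Wt1, a regulator of kidney and mesothelium, fell by 3.52 ± 0.23 (adjusted p = 0.00504), and its other probes gave -2.44 and -2.70. Bmp2, a bone morphogenetic ligand, fell by 1.87 ± 0.18 and the cardiac factor Gata4 by 1.32 ± 0.26 (adjusted p = 0.00707 and 0.0289). Of the 5 not tested, none was well above background on both arrays of a passage, among them Pax6, Neurog1 and Neurog2 on no array.

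**Figure D4:**
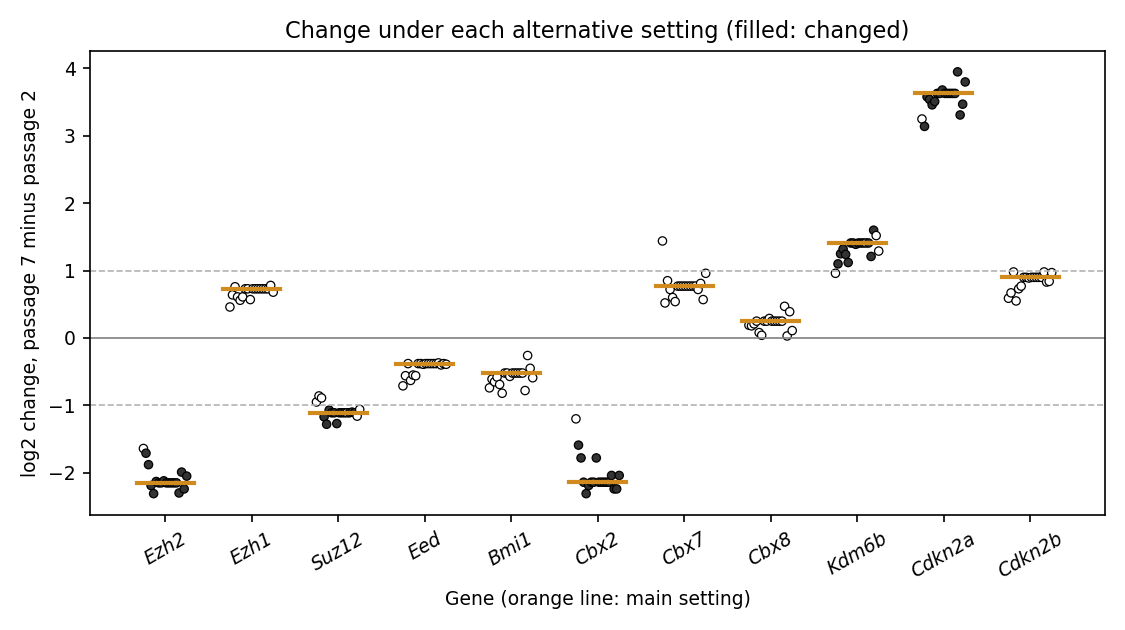
Change of each gene, as log2 passage 7 minus passage 2, under each alternative processing setting other than the one with no fold minimum (points; filled where the gene passed both thresholds) and in the main setting (orange line). No gene shown crosses 0 in any setting, Ezh2, Cbx2 and Cdkn2a each lose the call in 1, and Suz12 and Kdm6b lie close to the dashed 2-fold lines.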

How the data were processed

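Total RNA was labelled with Cy3 and hybridised to 1-colour Agilent arrays of a custom design, 2 for each passage. Per the file headers, Feature Extraction (Agilent, version 10.5.1.1) gave the deposited intensity of a spot, its processed signal, from which background has been subtracted and which has not been normalised between arrays. A value table from the authors, read as log2 from its range, was used as an alternative. How it was normalised and centred is unknown, and limma is the tool named in the submitters' processing notes. Its medians were 6.34 and 6.24 at passage 7 and 6.42 and 6.41 at passage 2, and it correlated with log2 processed signal of the same array at 0.968 to 0.975 across probes. Probes were named through the RefSeq accession of each spot and a table of assembly GRCm38.p6 (17466 genes).

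Here, outlier spots were dropped, the log2 of each array's 75th percentile over non-control spots was subtracted, and spots of 1 probe were averaged. The probe with the highest mean stood for its gene. Genes with signal well above background on both arrays of either passage (13847) entered limma 3.58.1 under R 4.3.3, with lmFit and eBayes over all 4 arrays and without covariates. Tests were two-sided, with Benjamini-Hochberg adjustment. Probes were also fitted singly, with adjustment over 24834 named probes. The code of the test was checked on simulated data with independent errors. The planted changes were larger than those of Suz12 and Kdm6b, so the check does not cover those calls.

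Members and lists were chosen with earlier results of these data known. The genes named are all members, Cdkn2a, Cdkn2b, Mtap, Rnf2, Kdm6a and Rbbp4, each wider Polycomb or trithorax gene past the thresholds, up to 3 changes each way of the proliferation and target lists, and the 3 nearest profiles of Ezh2 and of Kdm6b. A few markers, undetected targets and Hoxc13 were named after their values were seen. Alternatives covered background (normexp on spot medians, offset 50), normalisation, filter, probe choice, variance model, fold threshold, replicate block and each array left out. The number of arrays limits the precision.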

Additional observations from a re-analysis of the deposited data

How the results depend on the processing

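Of 341 comparisons of 18 results with 19 alternatives, 293 kept their direction and side of the threshold (counts within 1.5 times) and none reversed, apart from single genes of the wider list given at the end. The 293 include genes that passed in neither setting, and a count cannot reverse. Alternatives of filter, variance model, fold threshold and replicate block left the change of each member as it was. The total is thus no measure of how firm the changes are. The planned normexp correction called 0 genes in limma (662 at an unadjusted p under 0.05), and so 0 in each list (at an unadjusted p, 1 member, 0 wider Polycomb, 0 trithorax, 10 proliferation and 1 target gene). There Ezh2 changed by -1.64, Suz12 by -0.95, Cbx2 by -1.20, Kdm6b by 0.96 and Cdkn2a by 3.25 (adjusted p = 0.557 for each). On the passage 7 replicate 2 array single local backgrounds reached 36576, against a median of 18. With such marked backgrounds replaced, a setting chosen after seeing the data, 1244 genes passed, 0 trithorax (3 unadjusted) and 3 target genes, and Suz12 changed by -0.89 (adjusted p = 0.0739). With normexp and quantile normalisation 1266 passed, 3 wider Polycomb, 0 trithorax (4 unadjusted) and 3 target genes, and Suz12 changed by -0.86. With no filter 1771 genes and 1 wider Polycomb gene passed, with the mean of probes 2 of the latter, and with no fold minimum 9, besides Ezh1 (0.73) and Cdkn2b (0.90). Otherwise the cause was not tested.

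With the replicate number as a block 1173 genes passed, 2 members, 1 wider Polycomb, 0 trithorax (2 unadjusted) and 3 target genes. Suz12 (-1.11, adjusted p = 0.0648) and Kdm6b (1.41, adjusted p = 0.0504) lost their calls under this block. The labels give no pairing, and deviations of same-numbered arrays correlated at -0.168; with the crossed pairing, chosen after seeing the data, 3066 genes and 4 members passed. With 1 array left out, 1152 to 3458 genes passed, 2 to 4 members, 1 to 7 wider Polycomb, 0 to 2 trithorax, 11 to 16 proliferation and 3 to 6 target genes, the fewest without a passage 7 array except in the wider Polycomb list. Suz12 then ran from -1.16 to -1.06 and Kdm6b from 1.21 to 1.60. Kdm6a turned to -0.57 with the mean of its probes and Rbbp4 to 0.21 with the planned normexp correction. The median spot was 2.94 to 5.05 times its background, which limits statements on dim genes.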
